A study of Mus musculus with 6 samples.

Results

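Genes of basophils and mast cells were examined in mouse bone marrow on 6 Affymetrix arrays. The labels name 3 of them ASXL1-MT-transplanted and the other 3, the controls, mock-transplanted. The genes are Fcer1a, Ms4a2, Hdc, Cpa3, Mcpt8, Prss34, Il1rl1 and Hnmt, chosen by name, and a probe set was used where the platform annotation gave it exactly 1 gene symbol. Of the 8 genes, 6 matched, with 8 of the 45037 probe sets of the table. They are Fcer1a, Hdc, Ms4a2, Cpa3, Mcpt8 and Hnmt. Prss34 and Il1rl1 were not matched and are not analysed here.

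Per the labels, disease like myelodysplastic syndrome was present in the ASXL1-MT mice and the mock mice served as normal controls. The series text states that marrow of both groups was depleted with antibodies to CD3e, B220 and TER-119, which mark T cells, B cells and red cell precursors, while the source label states the depletion for mock alone. ASXL1 is a chromatin regulator, and its truncating mutations recur in myelodysplastic syndrome. Both groups carry the same transplant prefix in their titles, and the labels give neither the strain and age of the mice, nor the vector, nor whether the 3 samples of a group are separate mice or pools. What the p-values measure is therefore the spread among these samples alone, and it may be technical.

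Basophils and mast cells are rare myeloid cells that carry the high affinity IgE receptor and release histamine and proteases from granules when that receptor is cross-linked. In the receptor the alpha chain, encoded by Fcer1a, binds IgE, the beta chain, encoded by Ms4a2, amplifies the signal, and the gamma chain, encoded by Fcer1g, carries it inward. Hdc makes histamine from histidine and Hnmt inactivates it by methylation. Cpa3 is a granule carboxypeptidase, and Mcpt8 is a granule protease that marks mouse basophils. Not all of these genes are restricted to the 2 cell types: Hdc is also active in immature myeloid cells, Cpa3 in some progenitors and Hnmt in many tissues.

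All values are logs, read here as base 2. The 6-array median of every probe set is 0, so a value gives an array's distance from that median and not a level. A change is the mean of ASXL1-MT minus the mean of mock, and a negative change means lower in ASXL1-MT. Since levels were removed, the labelled cell type could not be checked against its markers, and no gene's level can be set against another's. In bulk marrow, fewer cells of a type and less RNA per cell cannot be told apart.

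The DNA just before the start of 4 of the genes is shown because they make up the pairs that the results compare. These are the alpha and beta chains of 1 receptor and a gene at each end of histamine turnover. Each is the 250 bases before a start listed for the gene in the RefSeq promoter table used here (GRCm38.p6), printed 5′ to 3′ on the gene's own strand. The span that RefSeq gives each of the 4 genes on the same build begins farther upstream than the listed start, farthest for Hdc, so transcripts from other starts are not covered by these windows. Capitals mark matches, on either strand, to 6 motifs: AGATAA and TGATAA (cores bound by GATA factors, which direct basophil and mast cell genes), CACGTG and CATGTG (E-boxes that MITF can bind), TGTGGT (RUNX) and TTCNNNGAA (STAT5).
Fcer1a (chr1:173227230-173227479, minus strand): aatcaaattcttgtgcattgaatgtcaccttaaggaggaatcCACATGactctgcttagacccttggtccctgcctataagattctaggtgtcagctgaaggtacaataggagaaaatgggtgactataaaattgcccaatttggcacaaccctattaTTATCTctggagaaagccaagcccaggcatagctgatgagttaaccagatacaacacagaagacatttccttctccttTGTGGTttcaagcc
Ms4a2 (chr19:11623720-11623969, minus strand): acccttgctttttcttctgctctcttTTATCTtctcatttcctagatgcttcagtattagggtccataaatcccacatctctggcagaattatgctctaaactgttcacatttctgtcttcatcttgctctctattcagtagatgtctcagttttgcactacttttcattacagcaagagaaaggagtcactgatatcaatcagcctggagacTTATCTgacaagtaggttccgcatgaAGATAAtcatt
Hdc (chr2:126618679-126618928, minus strand): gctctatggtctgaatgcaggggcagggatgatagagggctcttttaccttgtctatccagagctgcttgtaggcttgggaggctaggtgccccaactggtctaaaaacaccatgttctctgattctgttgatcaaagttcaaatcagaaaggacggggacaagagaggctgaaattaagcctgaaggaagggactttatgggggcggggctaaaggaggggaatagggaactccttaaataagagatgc
Hnmt (chr2:24049380-24049629, minus strand): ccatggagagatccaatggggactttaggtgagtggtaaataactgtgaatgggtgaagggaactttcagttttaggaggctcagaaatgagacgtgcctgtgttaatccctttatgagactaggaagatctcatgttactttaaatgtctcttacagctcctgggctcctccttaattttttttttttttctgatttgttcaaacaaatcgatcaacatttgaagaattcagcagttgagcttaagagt
The capitals in Fcer1a are a CATGTG match 208 to 203 bases before the start, an AGATAA match at 92 to 87 and a TGTGGT match at 14 to 9. Ms4a2 holds 3 AGATAA matches, at 224 to 219, 37 to 32 and 11 to 6 bases before its start. No letters are capital in Hdc and Hnmt, which says only that these motifs are not in these windows.

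Over the 8 genes, with 9 windows because the table lists a pair of starts for Il1rl1, whose span also begins upstream of both, AGATAA was present for 5, against 9.99% of all 32851 promoter windows of this length. The 5 were Fcer1a, Ms4a2, Cpa3, Prss34 and Il1rl1. TGTGGT was present for 4 (Fcer1a, Cpa3, Mcpt8 and Il1rl1), against 14% of all windows, and CATGTG for 2 (Fcer1a and Prss34), against 12.3%. TGATAA was present for 1, Il1rl1, against 7.94%, and CACGTG and TTCNNNGAA for 0, against 6.02% and 7.02%. Genes with and without a change below are found among those with AGATAA, and matches are a description of the letters alone.

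Fcer1a, Hnmt and Hdc were lower in ASXL1-MT marrow, by log2 changes of -7.17, -6.17 and -2.39. Cpa3 had a smaller difference, with no overlap between the groups, that did not pass among all genes. Mcpt8 and Ms4a2 did not pass, and their groups overlapped. Of the 8 probe sets, 4 were lower and 0 higher in limma's test at an adjusted p under 0.05, beside 3.37% of all probe sets called lower, 4.73% called higher and 8.10% called either way. The groups did not overlap, with ASXL1-MT lower, in 5 of the 8, beside 13.7% of all probe sets, with 21.7% separated with ASXL1-MT higher and 35.4% in either direction. Averaged to genes, 3 of 6 were lower and 0 higher, beside 4.75% of 18193 genes called lower and 6.63% called higher. The groups were separated, lower in ASXL1-MT, in 4 of the 6, beside 14.4% of genes in that direction, 23.5% in the other and 37.9% in either. An unadjusted p under 0.05 was reached by 4 of the 6, beside 29.1% of all genes. The median change of the 6 genes was -1.63, where the median of all genes was 0.11.

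**Figure D1:**
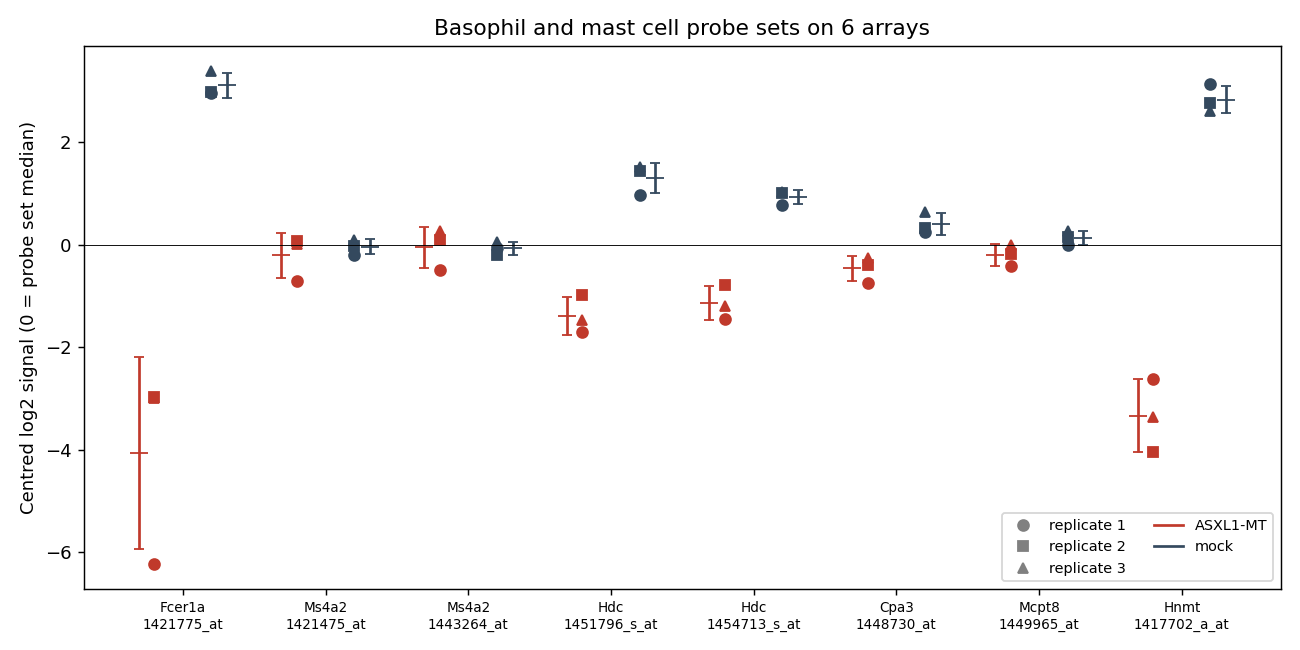
Centred log2 signal of each of the 8 probe sets on the 6 arrays (vertical axis, 0 is the probe set's own median), in red for ASXL1-MT and dark blue for mock, with marker shapes for replicate numbers and bars for the mean and SD of each group (n = 3). The groups lie far apart for Fcer1a, both Hdc probe sets and Hnmt, narrowly apart for Cpa3, and overlap for both Ms4a2 probe sets and Mcpt8.

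Among the receptor chains, Fcer1a stood at -6.22, -2.96 and -2.99 in ASXL1-MT replicates 1 to 3 and at 2.96, 2.98 and 3.40 in mock. All 3 ASXL1-MT arrays were below all mock arrays, and replicate 1 was far below the other ASXL1-MT arrays. The log2 change was -7.17 (SE 0.96, 95% interval -9.59 to -4.76, adjusted p = 0.0229 by limma over probe sets, n = 3 and 3). It was the 3rd most negative change of all 45037 probe sets and the 989th smallest p, because the SD was 1.87 within ASXL1-MT against 0.25 within mock. Leaving out single arrays gave changes between -7.72 and -6.09, the smallest without ASXL1-MT replicate 1, and the probe set passed in 1 of those 6 fits (adjusted p from 0.0290 to 0.0773).

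The size of the Fcer1a difference is uncertain because its low side is dim by the rounding of its values. If the logs are base 2 and were held in single precision, the rounding of the mock values puts the probe set's median below a signal of 256. That limits ASXL1-MT replicates 1 to 3 to signals below 3.42, 32.8 and 32.2 and the mock arrays to below 1996, 2013 and 2706. Detection calls were not used here, so no background level stands beside these limits.

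Ms4a2, the beta chain, is measured by 2 probe sets. Probe set 1421475_at read -0.71, 0.09 and 0.01 on the ASXL1-MT arrays and -0.20, -0.01 and 0.09 on the mock arrays, and the groups overlapped (log2 change -0.17, adjusted p = 0.746). Probe set 1443264_at read -0.50, 0.09 and 0.27 against -0.06, -0.19 and 0.06, again with overlap (log2 change 0.02, adjusted p = 0.972). In both, ASXL1-MT replicate 1 was the lowest of the 6 arrays. As a gene, Ms4a2 had a change of -0.07 with a 95% interval of -0.69 to 0.54. Probe set 1443264_at was bright by the rounding rule and 1421475_at was not, and rounding limits the latter to signals below 157 on the lowest array and below 273 on the highest. Whether 1421475_at read above background is not known, and a probe set at background would show no change, so the interval describes these signals and not the level of the beta chain.

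Taken within each array, Fcer1a minus Ms4a2 was -5.62, -3.05 and -3.14 on the ASXL1-MT arrays and 3.09, 3.08 and 3.33 on the mock arrays. The groups did not overlap in this difference (-7.10 on the log2 scale). The pair was formed after the values were seen, Fcer1a has only upper limits on its low side and Ms4a2 hardly varies, so the difference adds nothing to the Fcer1a values themselves. The exact two-sided permutation test gave p = 0.1, the smallest that 3 against 3 arrays allow, and p = 0.1 when adjusted over the 2 such differences computed.

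Fcer1g, the gamma chain, is shared with other Fc receptors of myeloid cells and is no member of the 8. It read -0.45, -0.32 and -0.25 on the ASXL1-MT arrays and 0.25, 0.26 and 0.28 on the mock arrays, with no overlap. The gene passed as lower by 0.60 on the log2 scale (adjusted p = 0.0433 by limma over genes), and on the probe set level its single probe set missed the threshold (adjusted p = 0.0616).

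Hdc and Hnmt, at either end of histamine turnover, were both lower. For Hdc, which makes histamine, probe set 1451796_s_at read -1.70, -0.98 and -1.47 on the ASXL1-MT arrays and 0.98, 1.44 and 1.51 on the mock arrays (log2 change -2.70, SE 0.27, adjusted p = 0.016). Probe set 1454713_s_at read -1.44, -0.78 and -1.19 against 0.78, 1.01 and 1.03 (log2 change -2.08, SE 0.22, adjusted p = 0.017). The probe sets ranked the arrays alike, with ASXL1-MT replicate 1 lowest and mock replicate 3 highest, and neither had overlap between groups. As a gene, Hdc was 5.23-fold lower (95% interval of the log2 change -2.98 to -1.79, adjusted p = 0.0106 over genes). Both probe sets were bright, meaning that the rounding of their 3 highest arrays goes with a signal of 256 or more in base 2, as for 38.1% of all probe sets.

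Hnmt, which breaks histamine down inside cells, read -2.61, -4.03 and -3.35 on the ASXL1-MT arrays and 3.13, 2.77 and 2.61 on the mock arrays. The groups lay more than 5 log2 units apart at their nearest arrays, at -2.61 and 2.61. The log2 change was -6.17 (SE 0.40, 95% interval -7.18 to -5.15, adjusted p = 0.0102 by limma over probe sets). It was the 14th most negative change of all probe sets and, as a gene, the 7th most negative of 18193. By its highest arrays the probe set was bright, and rounding limits ASXL1-MT replicates 1 to 3 to signals below 256, 95.3 and 153. The fold of 71.9 that the change gives therefore rests on signals that are low in ASXL1-MT. The gene has 1 probe set here.

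Hdc minus Hnmt within each array was 1.03, 3.15 and 2.02 on the ASXL1-MT arrays and -2.25, -1.55 and -1.34 on the mock arrays. This pair was also formed after the values were seen, and the low side of Hnmt is dim by the rounding limits. The change of Hdc was the smaller by 3.78 on the log2 scale, and the groups did not overlap in this difference (exact two-sided permutation p = 0.1, the smallest possible here).

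**Figure D2:**
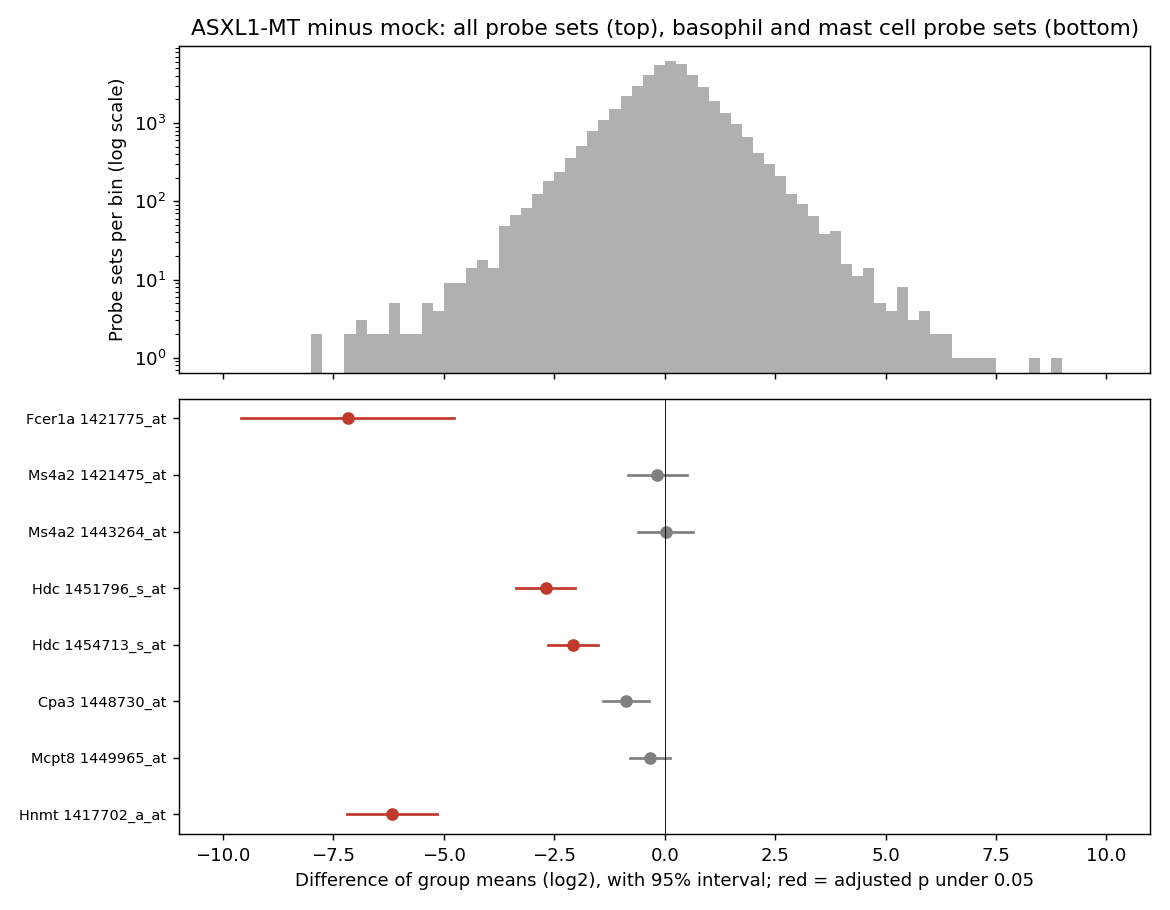
Top, number of probe sets per 0.25-wide bin of log2 change (horizontal axis, ASXL1-MT minus mock; vertical axis on a log scale) over all 45037 probe sets. Bottom, the 8 basophil and mast cell probe sets with their 95% intervals on the same axis, red where adjusted p was under 0.05: Fcer1a at -7.17 and Hnmt at -6.17 lie in the far left tail, and both Ms4a2 probe sets at -0.17 and 0.02 near the middle.

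The granule enzymes differed less. Cpa3 read -0.73, -0.39 and -0.25 on the ASXL1-MT arrays and 0.25, 0.33 and 0.64 on the mock arrays. The nearest arrays of the groups were 0.25 below and 0.25 above the median, so the separation was small but complete. That the distances are equal follows from the centring wherever the groups do not overlap. The log2 change was -0.87 (SE 0.21, 95% interval -1.39 to -0.35), with adjusted p = 0.0667 over probe sets and adjusted p = 0.0518 over genes. Under 7 of the 8 other settings that used all arrays the gene passed as lower, with an adjusted p = 0.0422 after quantile normalization, 0.0383 after cyclic loess and 0.0107 on bright probe sets alone. None of the 6 fits on 5 arrays called the gene (0 of 6, adjusted p from 0.0935 to 0.133). Its single probe set passed under only 2 of 7 other settings that used all arrays (adjusted p from 0.0122 to 0.149 by limma over probe sets). Calls over all genes also rose under some of these settings. They went from 2072 to 4139 on bright probe sets alone and to 3898 with the probe set of smallest SD.

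Mcpt8, the basophil granule protease, read -0.42, -0.19 and 0.00489 on the ASXL1-MT arrays and -0.00489, 0.15 and 0.27 on the mock arrays. The groups overlapped only where ASXL1-MT replicate 3 lay just above mock replicate 1. The log2 change was -0.34 (SE 0.18, 95% interval -0.80 to 0.12, adjusted p = 0.309 over probe sets). The interval leaves room for no change and for a fall of up to 0.80, and not for one of the size measured for Hdc.

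In 7 of the 8 probe sets ASXL1-MT replicate 1 was the lowest array, and Hnmt was the exception, where it was the highest of the ASXL1-MT arrays. Averaged over the 6 genes, the arrays stood at -2.03, -1.39 and -1.30 on the ASXL1-MT arrays and at 1.18, 1.23 and 1.38 on the mock arrays. Fcer1a and Hnmt, with log2 changes of -7.17 and -6.17, weigh most in this mean. Ms4a2 and Mcpt8, at -0.07 and -0.34, add little to it. With an array left out the number of probe sets called was 4, 1 and 0 when ASXL1-MT replicates 1, 2 and 3 were left out in turn, and 2, 1 and 1 for mock replicates 1, 2 and 3. At an unadjusted p under 0.05 by limma, 5 of the 8 passed in each of these 6 fits and with all arrays, beside 26.3% of all probe sets with all arrays. The count over all probe sets fell from 3646 to between 66 and 1142 in the same fits. As genes, Hnmt passed in 6 of 6 such fits, Hdc in 5 and Fcer1a in 2, with adjusted p from 0.0193 to 0.0576 for Fcer1a.

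**Figure D3:**
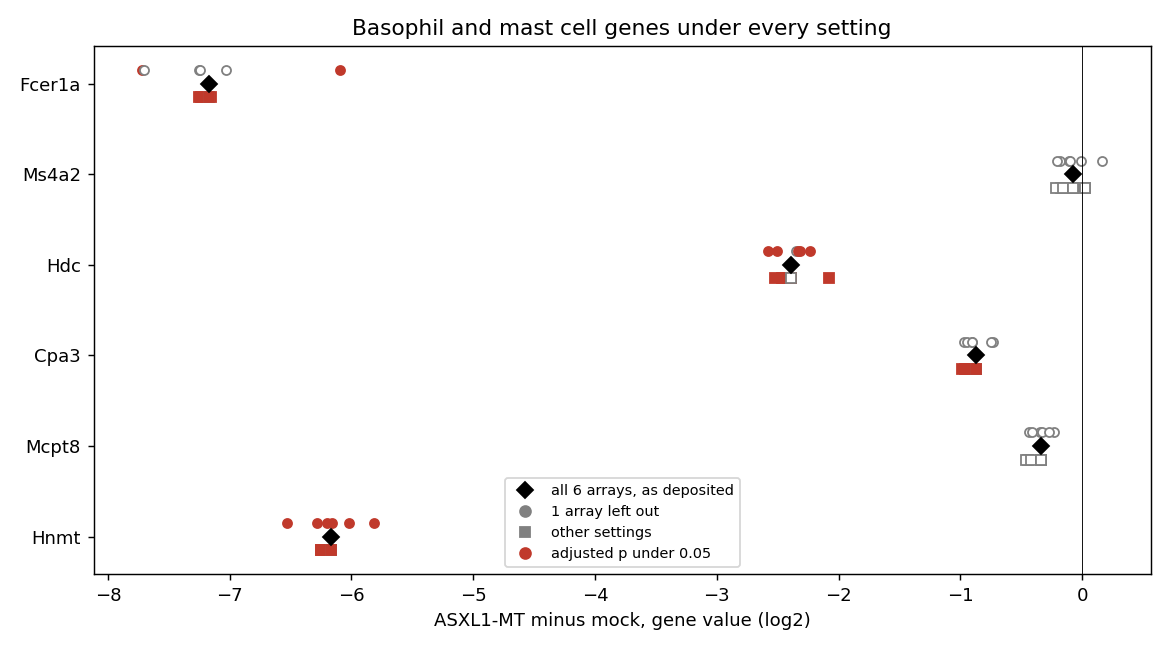
Log2 change of each of the 6 genes (horizontal axis) with all arrays as deposited (black diamond), with 1 array left out (circles) and under the other settings (squares), filled red where adjusted p was under 0.05 and open where not. Fcer1a, Hdc, Cpa3, Mcpt8 and Hnmt stay on the negative side throughout, and Ms4a2 lies on both sides of 0.

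Pathway genes from 7 lists, written from textbook knowledge with earlier results of these data known, were read from the same fit. Of 92 measured genes, 16 were lower and 5 higher, 22.8%, beside 11.4% of all genes called in either direction, and their median change was -0.23. Many of these genes are also active in neutrophils, macrophages or lymphoid cells. Lists are described by counts and medians alone, and nothing is claimed to be particular to them.

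In IgE receptor signalling, 2 of 14 genes were lower and 1 higher, with a median change of 0.13. Syk, the kinase that binds the gamma chain, was lower by 0.73 on the log2 scale (adjusted p = 0.0362), with values of -0.45, -0.27 and -0.55 against 0.32, 0.38 and 0.21. Fyn, a Src family kinase, was higher by 1.30 (adjusted p = 0.034), with 0.50, 0.56 and 0.60 against -1.25, -0.43 and -0.57. The third was Fcer1g. Fyn and Syk each had no overlap between the groups.

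Among granule proteases and proteoglycan genes, 1 of 13 was lower and 0 higher, with a median of -0.31. It was Chst11, a chondroitin sulfotransferase, at -0.42, -0.35 and -0.36 against 0.31, 0.47 and 0.38 (log2 change -0.77, adjusted p = 0.0242). The mast cell tryptases Tpsab1 and Tpsb2, chosen after their values were seen, had log2 changes of -0.31 and -1.12 and did not pass (adjusted p = 0.786 and 0.0836 by limma).

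In histamine and amine handling, 2 of 10 genes were lower and 0 higher, with a median of -0.35. Maob, which oxidises amines including the methylated product of Hnmt, read -2.10, -1.56 and -2.40 against 3.03, 1.56 and 2.23 (log2 change -4.29, SE 0.44, adjusted p = 0.0113). Its groups did not overlap, and its probe set was not bright. Hrh2, a histamine receptor, read -0.39, -0.47 and -1.10 against 0.70, 0.40 and 0.39 (log2 change -1.15, adjusted p = 0.0416). Its single probe set missed the threshold over probe sets (adjusted p = 0.054 by limma). Slc18a2, which loads amines into granules and was chosen after its values were seen, had a log2 change of -0.58 and did not pass (adjusted p = 0.157). Aoc1, also of this list and chosen after its values were seen, went the other way with overlap between the groups. Its log2 change was 1.78 and it did not pass (adjusted p = 0.365 by limma over genes).

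Cytokines and their receptors held the most calls, with 7 of 23 genes lower and 1 higher and a median of -0.90. Tslp, an epithelial cytokine that acts on basophils, read -3.24, -3.64 and -3.72 against 3.46, 3.58 and 3.24 (log2 change -6.96, SE 0.19, adjusted p = 0.0023), on 1 probe set that was not bright. Il6, a general inflammatory cytokine, was lower by a log2 change of -3.36 (adjusted p = 0.0498 over genes and 0.0598 over probe sets by limma). Il13, a type 2 cytokine, was lower by -2.43 (adjusted p = 0.0154), on a probe set that was not bright. Il18r1, a chain of the IL-18 receptor, rose by 2.28 (adjusted p = 0.00773), with 1.18, 0.95 and 1.29 against -0.95, -1.28 and -1.18. Its partner chain Il18rap, chosen after its values were seen, was among the lower genes, at a log2 change of -1.13 (adjusted p = 0.0222).

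The other lower genes of that list were receptors, named after their values were seen. Crlf2, the receptor chain for TSLP, was lower by 1.12 on the log2 scale (adjusted p = 0.0143). Csf2rb, the chain shared by the receptors for IL-3, IL-5 and GM-CSF, was lower by 1.10 (adjusted p = 0.0181), and Csf2rb2, a mouse chain specific to IL-3, was also lower by 1.10 (adjusted p = 0.0196). These 2 chains are near copies in sequence, so their signals may be split between them. Il3ra, the IL-3 binding chain, did not pass at a log2 change of -0.63 (adjusted p = 0.0837). Nor did Kit, the mast cell growth factor receptor, at 0.20 (adjusted p = 0.424), and both were also chosen after their values were seen.

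Of 15 lineage transcription factors, 3 were lower and 1 higher, with a median of 0.04. Bhlhe40 was lower by 2.69 on the log2 scale (adjusted p = 0.0306), Nfil3 by 1.59 (adjusted p = 0.0494) and Cebpb, a factor of myeloid maturation, by 1.16 (adjusted p = 0.0256). Nfil3 lost its call after cyclic loess (adjusted p = 0.0502) and with an intensity trend, without (adjusted p = 0.0522) and with robust settings (adjusted p = 0.0864). Its single probe set missed the threshold over probe sets (adjusted p = 0.0603 by limma). Irf8, a factor of monocytes and dendritic cells, was higher by 1.67 (adjusted p = 0.0106). Gata2, a factor needed for basophils and mast cells and chosen after its values were seen, read 0.02, -0.03 and 0.05 against -0.17, 0.03 and 0.05, with overlap (log2 change 0.04, adjusted p = 0.873).

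Among lipid mediator genes, 1 of 9 was lower and 1 higher, with a median of -0.19. Alox5, which starts leukotriene synthesis, was lower by 1.42 on the log2 scale (adjusted p = 0.012), and Cysltr1, a receptor for cysteinyl leukotrienes, was higher by 1.11 (adjusted p = 0.014). Of 8 mast cell receptor genes, 0 were lower and 1 was higher, with a median of 0.16. It was Itgb7, an integrin chain, at a log2 change of 0.69 (adjusted p = 0.039), and it lost the call after quantile normalization (adjusted p = 0.0505), cyclic loess (adjusted p = 0.0565) and equal array medians (adjusted p = 0.0515). Its single probe set missed the threshold over probe sets (adjusted p = 0.056 by limma).

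**Figure D4:**
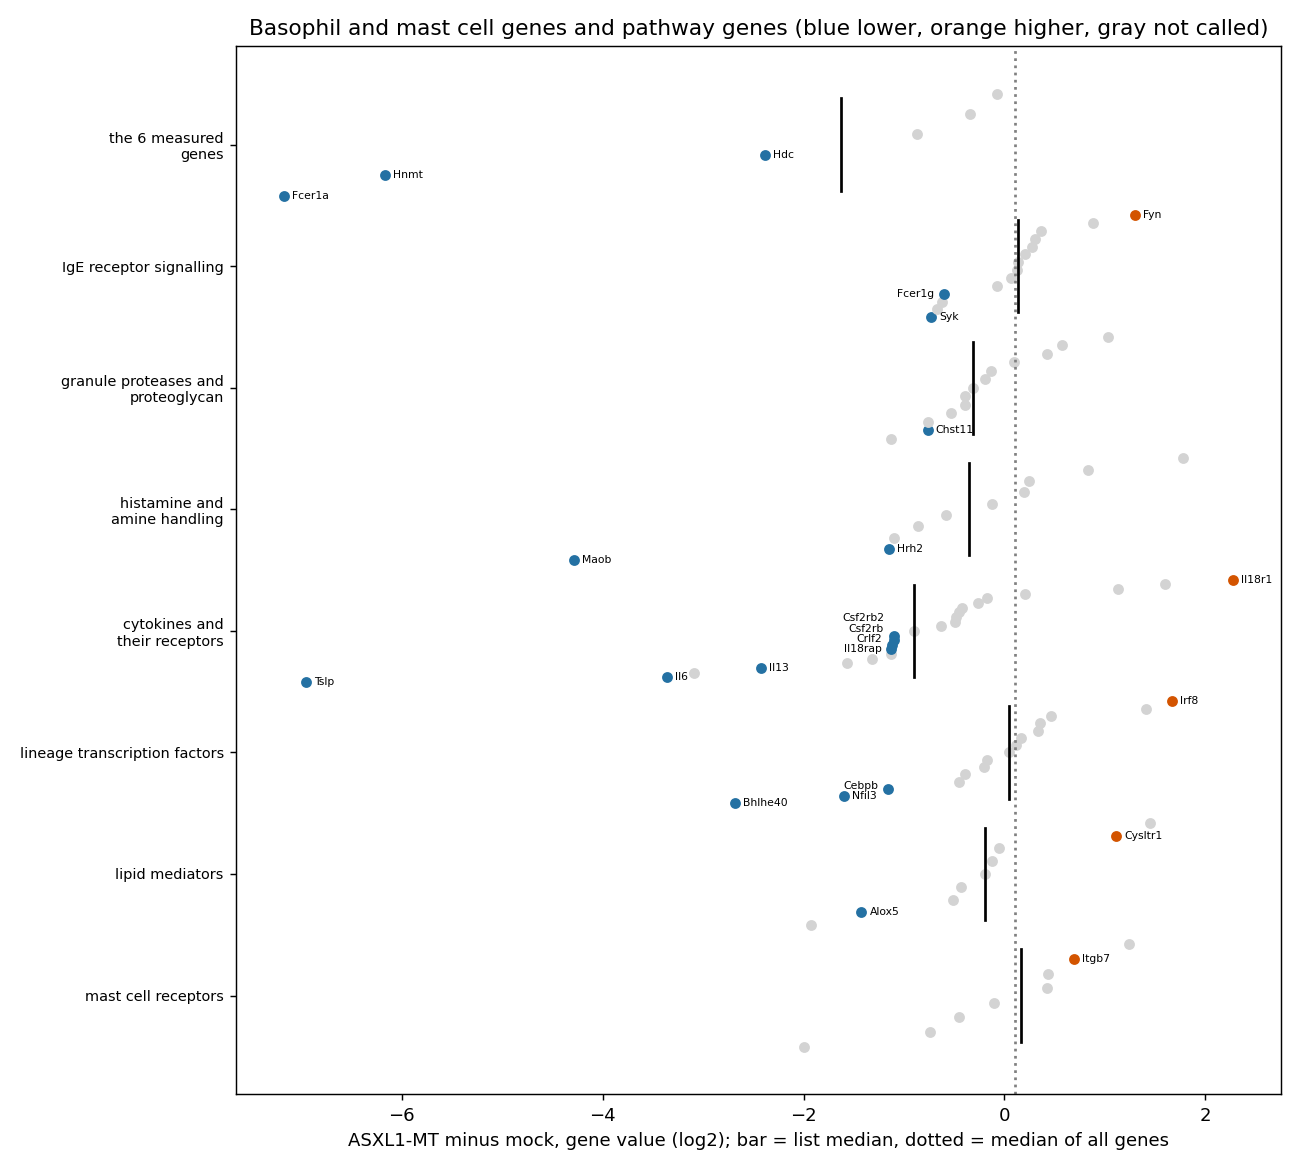
Log2 change (horizontal axis, ASXL1-MT minus mock) of the 6 measured genes and of the 7 pathway lists, 1 point per gene, blue where called lower, orange where called higher and gray where not called, with a bar at each list's median and a dotted line at the median of all genes, 0.11. Fcer1a, Hnmt and Tslp have the most negative changes shown.

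Marker lists of other cell types moved between the groups as well, and their part in these differences was not tested. Neutrophil markers were lower in 5 of 10 cases and higher in 0 (median change -0.83), with list means from -0.70 to -0.45 in ASXL1-MT and 0.45 to 0.63 in mock. The 5 were Il1r2, Cxcr2, Mmp8, Mmp9 and Csf3r. Of the others, S100a8, S100a9, Camp and Ngp overlapped between the groups, with log2 changes of -0.18, 0.00026, -0.17 and -0.15. Ltf did not overlap, at a log2 change of -0.45. Megakaryocyte markers were lower in 5 of 9 (Pf4, Itga2b, Gp1bb, Vwf and Clec1b; median -1.78), with list means from -1.22 to -0.63 against 0.20 to 1.17. The probe sets of Gp1bb, Vwf and Clec1b were not bright by the rounding rule, and those of Pf4 and Itga2b were. The neutrophil and megakaryocyte list means both separated the groups in the direction of Fcer1a, Hdc and Hnmt, though not every marker did.

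Eosinophils share the IL-3 family receptors with basophils, and of their 6 measured markers 1 was lower, Siglecf, with a median of -1.56. Their list mean overlapped, from -1.75 to -0.12 in ASXL1-MT and from -0.25 to 2.17 in mock, where mock replicate 1 was the low array. On that array the 6 basophil and mast cell genes averaged 1.18, beside 1.23 and 1.38 on the other mock arrays. It was the lowest mock array for 5 of the 6 genes, among them Hdc at 0.88 beside 1.23 and 1.27, and the highest for Hnmt. Without it, 2 of the 6 genes were called, Hdc and Hnmt. Calls over all 18193 genes fell as well, from 2072 with all arrays to 876.

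Other lists were higher in ASXL1-MT. Of 5 progenitor markers, 3 were higher, Cd34, Flt3 and Cd27 (median 1.34), with list means from 0.57 to 0.67 against -1.08 to -0.46. The single probe set of Cd27 missed the threshold over probe sets (adjusted p = 0.0577 by limma). Of 6 dendritic cell markers, 4 were higher, Siglech, H2-Aa, Ciita and Bst2 (median 2.14), with means from 0.74 to 0.89 against -1.75 to -0.83. The single probe set of Siglech was not bright and missed the threshold over probe sets (adjusted p = 0.0559 by limma). Among 7 macrophage markers 1 was higher and 1 lower, Cd163 and Vcam1 (median 0.48, means -0.30 to 0.04 against -1.30 to 0.27). Over probe sets, that of Cd163 missed the threshold (adjusted p = 0.0516 by limma). Of 6 stroma markers 2 were higher, Cxcl12 and Col3a1, and 1 lower, Pdgfrb (median 1.25, means -0.21 to 0.31 against -0.88 to -0.30). Both higher calls average probe sets that differ in sign. Their log2 changes were 3.78, 3.44 and -0.22 for Cxcl12 and 3.93 and -0.57 for Col3a1.

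Of the lineages that the depletion targets, red cell precursors and T cells were read through lists and B cells were not. Of 4 erythroid markers 1 was higher, Alas2 (median 1.14), and the list means did not overlap, at 0.17 to 1.43 in ASXL1-MT and -1.43 to -0.15 in mock. The single probe set of Alas2 missed the threshold over probe sets (adjusted p = 0.053 by limma). Of 8 T cell and innate lymphoid markers 0 passed in limma's test and 2 had an unadjusted p under 0.05 (median 0.03, means -0.46 to 0.10 against -0.65 to 0.61). Centring removed the levels, so which markers are at or near background cannot be read.

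**Figure D5:**
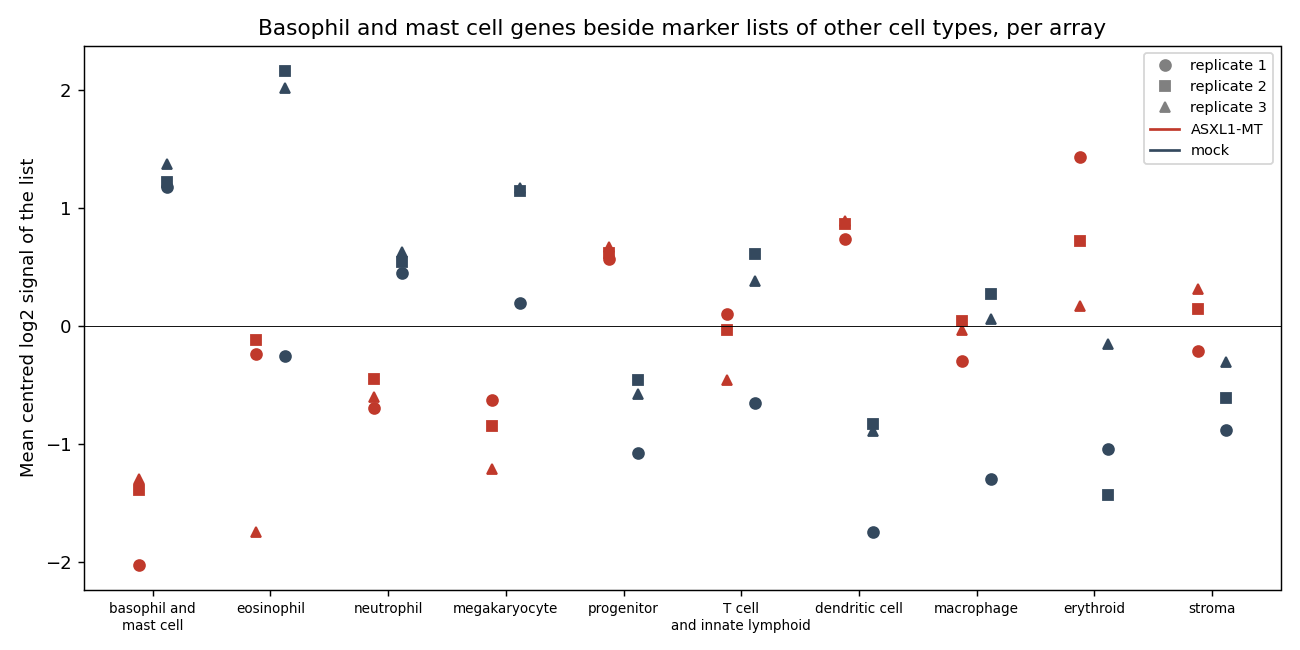
Mean centred log2 signal (vertical axis) of the 6 basophil and mast cell genes and of 9 marker lists of other cell types on each array, red for ASXL1-MT and dark blue for mock, with marker shapes for replicate numbers. The basophil and mast cell mean, in which Fcer1a and Hnmt weigh most, lies between -2.03 and -1.30 in ASXL1-MT and between 1.18 and 1.38 in mock. The eosinophil lists of the groups overlap through mock replicate 1.

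The genes most like the mean of the 6 genes over the 6 arrays were Adam19 (Pearson r = 0.999), Ppp1r14bl (r = 0.999), Fcer1g (r = 0.999), Snx6 (r = 0.999) and Atxn7l2 (r = 0.997). Their log2 changes were -4.28, -2.55, -0.60, -1.66 and -1.72 in that order. With 6 arrays in 2 separated groups such values are common: 580 of 18187 genes had an r above 0.95 and 678 had one below -0.95, so the likeness describes the shared group difference.

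Over the whole table the median change was 0.11, and it was 0.02 after quantile normalization, 0.00 after cyclic loess and 0.02 with array medians set equal. The share of calls that were higher was 58.4% on the deposited values and 47.9%, 46.2% and 49.9% under those settings. The changes of Fcer1a, Hdc, Cpa3, Mcpt8 and Hnmt were negative under each of them. The Ms4a2 gene change was between -0.22 and 0.02 over all settings with 6 arrays.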

How the data were processed

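The values are the series' deposited log2 table of 45037 probe sets on 6 arrays. The authors made signals with MAS5, per the submitters' processing notes, and the log, its base, the centring and any floor are not given in the sources used here. Row medians were 0 to within 5e-07. Symbols came from the platform annotation, which gave 34945 probe sets 1 symbol and 932 several, and left 9160 unnamed here. Probe sets of 1 symbol were averaged into 18193 genes.

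Groups and replicate numbers came from the sample titles. The limma package (3.58.1, R 4.3.3) was used with group as the only term and no intensity trend. Its lmFit and eBayes were run over all probe sets and over all genes, two-sided, with Benjamini-Hochberg adjustment over the whole table at 0.05 and 95% intervals from the moderated spread. No filter on signal was used. The fit was tested on simulated data. The number of arrays, 3 in each group, limits the precision.

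A probe set was called bright when its 3 highest values, read back as single-precision numbers, lay on steps of 20 binary places. That rule can also take dimmer probe sets by chance. An upper limit on an array's signal follows where a value lies off that step.

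The genes, the lists and the motifs were chosen with earlier results of these data known. Named were all 8 genes, and from each pathway list up to 4 called genes with the largest change, or, in a list without calls, the gene of smallest p. From other cell types the called markers were named, and the 5 genes most like the mean. Others are marked where named. Alternatives were quantile normalization, cyclic loess, equal array medians, trend with and without robust settings, bright probe sets alone, the probe set of smallest SD, a replicate block and each array left out. The within-array differences and the limits on signal were added after the values were seen.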

Additional observations from a re-analysis of the deposited data

How the results depend on the processing

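With all arrays as deposited, 3646 probe sets and 2072 genes were called. Probe sets called were 5816 with trend and robust settings and 6789 on bright probe sets alone. Genes called were 4139 on bright probe sets alone and 3898 with the probe set of smallest SD. Of the pathway genes, 21 were called, and 33 on bright probe sets alone, where the share called rose over the whole table as well. That setting called 6789 of 17144 probe sets, and 8629 had an unadjusted p under 0.05 by limma. With all 45037 probe sets those counts were 3646 and 11832. With an array left out, the calls ran from 66 to 1142 probe sets, from 192 to 1033 genes, from 0 to 4 of the 8 basophil and mast cell probe sets, from 1 to 3 of the 6 genes and from 2 to 12 pathway genes. Pathway calls were 12, 6 and 2 without ASXL1-MT replicates 1, 2 and 3 and 12, 9 and 8 without mock replicates 1, 2 and 3. The lowest counts were without ASXL1-MT replicate 3, and the cause was not tested.

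With the replicate number as a block, limma called 0 probe sets, 0 genes, 0 of the 8 basophil and mast cell probe sets, 0 of the 6 genes and 0 pathway genes. At an unadjusted p under 0.05 that block gave 9874 probe sets, 4568 genes, 5 of the 8, 4 of the 6 and 32 pathway genes. Same-numbered arrays deviated from their group means with correlations of -0.009, -0.012 and -0.009, and the other pairs with 0.002 to 0.007. The labels do not say what the replicate number stands for. Whether the arrays were paired is not settled by these values, which are averaged over the whole table. Signs by setting were computed for the basophil and mast cell genes, their probe sets and the pathway genes alone. None of the 4 called probe sets, the 3 called genes or the 21 called pathway genes changed sign under a setting that kept it. Depth cannot be read from centred values, and the low signals of Fcer1a and Hnmt in ASXL1-MT limit how well their folds are known.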
